A study of Mus musculus with 29 samples.

Results

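Growth factor receptors of the ERBB, MET and FGF families were described in a mouse model of peritoneal dissemination of gastric cancer, together with a pair of ligands of the EGF receptor. The 10 genes were the ERBB receptors Egfr, Erbb2 and Erbb3, the receptor Met, the FGF receptors Fgfr1, Fgfr2, Fgfr3 and Fgfr4, and the ligands Areg (amphiregulin) and Ereg (epiregulin). They were chosen by symbol from the 24421 genes of the deposited count table, and each of the 10 was found. All were followed over 7 groups of treatment, day and outcome.

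These receptors are tyrosine kinases that sit in the cell membrane and pair up when a ligand binds. EGFR binds amphiregulin, epiregulin and related ligands, ERBB2 has no ligand of its own and acts as the partner of the other ERBB receptors, and ERBB3 binds neuregulins and has a weak kinase. MET is the receptor of hepatocyte growth factor (HGF). FGFR2 in its epithelial form, FGFR3 and FGFR4 are common on epithelial cells, FGFR1 is common on mesenchymal cells, and ERBB2, FGFR2 and MET are known for gene amplification in human gastric cancer.

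RNA-seq libraries of 29 female C57BL/6J mice were analysed, 1 per mouse. Mice aged 5 to 6 weeks received YTN16 cells, a transplantable mouse gastric cancer line, into the peritoneal cavity on day 0. Every group, the untreated one included, was given this same line. Antibodies were injected into the peritoneal cavity on days 5, 8 and 12 in all treated mice and also on days 21 and 28 in mice kept to day 35, where a dose of anti-PD1 was 10 mg/kg and a dose of anti-CTLA4 was 5 mg/kg, and untreated mice received PBS. On day 21 (3wk) there were 5 untreated mice and 5 mice given both antibodies (dual), and on day 35 (5wk) the groups held 5 untreated and 5 dual mice as well as 5 mice given anti-PD1 and 4 given anti-CTLA4 by itself. By the study's text, 1 further anti-CTLA4 mouse died before autopsy and was left out. The column names of the dual libraries at 3wk carry numbers that are not consecutive. Of the dual mice at 5wk, replicates 1 and 5 are called uncured and replicates 2, 3 and 4 cured. That outcome is not in the sample labels. It rests on the mouse numbers in the study's text, taken as the replicate numbers of the libraries, so the comparison of all 5 dual mice, which needs no such step, is given as well. The labels call the material tumor tissue and the study's methods call it stripped peritoneum with or without nodules, so a library holds tumor and host tissue together, and fewer cells of a type cannot be told apart from less RNA per cell. The 3wk and 5wk libraries carry sample numbers of different series, and day and series cannot be told apart.

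The promoters of 3 members are shown because they belong to the ligand and the receptor that decreased most in cured mice (Areg and Fgfr2) and to the receptor that decreased least (Egfr). They are the 150 bases before the transcription start of Areg, Fgfr2 and Egfr as listed by RefSeq on GRCm38.p6, none of which overlap an annotated exon. Capitals mark any match, on either strand, to 6 short motifs. These were the TATA box (written TATAAA), the box named CCAAT, the GC box (written GGGCGG), the cyclic AMP response element (written TGACGTCA), the AP-1 motif (written TGANTCA) and an E-box (written CAGGTG). Areg lies on the plus strand (chr5:91139449-91139598), Fgfr2 on the minus strand (chr7:130266809-130266958) and Egfr on the plus strand (chr11:16752053-16752202).
Areg: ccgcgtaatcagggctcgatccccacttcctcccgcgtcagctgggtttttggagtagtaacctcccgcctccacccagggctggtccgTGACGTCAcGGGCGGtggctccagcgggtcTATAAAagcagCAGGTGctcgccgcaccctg
Fgfr2: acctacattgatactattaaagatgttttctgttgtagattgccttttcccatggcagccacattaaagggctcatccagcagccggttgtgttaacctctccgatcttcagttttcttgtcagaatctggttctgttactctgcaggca
Egfr: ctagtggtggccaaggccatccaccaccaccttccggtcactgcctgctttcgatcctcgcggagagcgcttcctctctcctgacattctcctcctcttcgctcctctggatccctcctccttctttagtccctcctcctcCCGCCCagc

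The Areg sequence held a TATA box 31 to 26 bases before the start, with a cyclic AMP response element, a GC box and an E-box beside it. In 250 bases before the start, 12.4% of the 32851 promoters of the table held the TATA box, 1.55% the response element, 32.7% the GC box and 17.2% the E-box. The Egfr sequence held a GC box, the Fgfr2 sequence held none of the 6 motifs, and GC content over 250 bases was 57.2% for Areg, 44.0% for Fgfr2 and 60.8% for Egfr beside a median of 52.4% over all promoters. The table matched 7 of the 10 members. In Erbb2 the 250 bases held a CCAAT box, which 33.9% of promoters held, in Met GC boxes and the AP-1 motif, which 6.75% held, in Fgfr4 GC boxes and in Fgfr3 GC boxes and a CCAAT box. The members without an entry were Erbb3, Fgfr1 and Ereg. A match is a run of letters and was not tested as a binding site.

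On GRCm38 (GENCODE vM21) the ERBB receptor genes lie at chr11:16752203-16918158 (Egfr), chr11:98412470-98437716 (Erbb2) and chr10:128567523-128589652 (Erbb3), and Met lies at chr6:17463800-17573980. The FGF receptor genes lie at chr8:25513654-25575718 (Fgfr1), chr7:130162451-133123350 (Fgfr2, with a long annotated span), chr5:33721674-33737068 (Fgfr3) and chr13:55152640-55168759 (Fgfr4). The ligand genes Ereg (chr5:91074622-91093646) and Areg (chr5:91139599-91148432) are neighbours. Exons of Erbb2, Fgfr1, Fgfr3 and Ereg overlap those of a gene on the opposite strand and exons of Fgfr2 overlap Ctbp2 on the same strand. The counting is not stated to use strand, so reads in those overlaps could belong to either gene.

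Library totals lay between 25989217 and 31219650 counts, so depth was close to equal. Some libraries stood apart in tissue makeup, which is to be kept in mind for the results below. Summed over 22 markers of gastric epithelium (keratins, claudins, gastrokines and the like), CPM (a count relative to the TMM-adjusted size of its library) lay between 1390 and 4578 in untreated mice at 5wk and between 26.1 and 121 in cured mice. In the cured mice 4 of the 22, Gkn1, Gkn2, Tff1 and Muc5ac, were at 0 in all 3 libraries. The label of tumor tissue thus went with low epithelial markers in these mice, of which 6 stayed at 3 counts or fewer in every cured library. Replicate 5 of the anti-PD1 mice had a sum of 79.8 where the other 4 lay between 3461 and 4499. The study counts 1 cured mouse in that group without a label to tell which, so the library was kept and results are given with and without it. Among the untreated mice at 5wk, replicate 2 had the lowest sum (1390) and the highest skeletal muscle sum (255143 CPM). Skeletal muscle markers summed to between 286875 and 320452 CPM in the cured mice.

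Levels were compared between genes only per length, as CPM per kilobase of exon. In untreated mice at 3wk, Fgfr1 was highest at 18.6 ± 4.10 (SD, n = 5), apart from the next gene Met at 8.24 ± 1.71, and Erbb2 followed at 8.04 ± 1.81 and Erbb3 at 6.33 ± 1.17. Then came Fgfr4 at 4.92 ± 0.948, Egfr at 4.09 ± 0.647, Areg at 2.83 ± 0.642, Fgfr2 at 1.75 ± 0.382, Fgfr3 at 1.04 ± 0.176 and Ereg at 0.0927 ± 0.110. From Met to Fgfr2 each neighbour in this order overlapped the next, whereas Fgfr2, Fgfr3 and Ereg lay apart from each other. In untreated mice at 5wk the order began with Erbb2 at 14.7 ± 4.68 and Fgfr1 at 12.0 ± 2.99, and every pair of neighbours down to Fgfr3 at 1.80 ± 0.567 overlapped. Only Ereg, at 0.0569 ± 0.0465, was apart from the gene above it there.

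In the 3 cured mice the order was another one. Fgfr1 was at 24.4 ± 1.04 CPM per kilobase (n = 3) and Met, the next, at 4.28 ± 0.305. The other receptors followed at 2.65 ± 0.608 for Fgfr4, 2.45 ± 0.269 for Erbb2, 2.33 ± 0.141 for Egfr, 1.80 ± 0.315 for Erbb3, 0.775 ± 0.167 for Fgfr3 and 0.163 ± 0.0355 for Fgfr2, and both ligands were at the bottom. The neighbours Fgfr4, Erbb2 and Egfr overlapped in turn and so did the ligands, while the other neighbours lay apart. In the 2 uncured mice Erbb2 led at 18.7 ± 1.16 (n = 2), above Erbb3 at 13.9 ± 2.68, Met at 12.1 ± 1.80 and Fgfr1 at 10.8 ± 1.29.

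**Figure D1:**
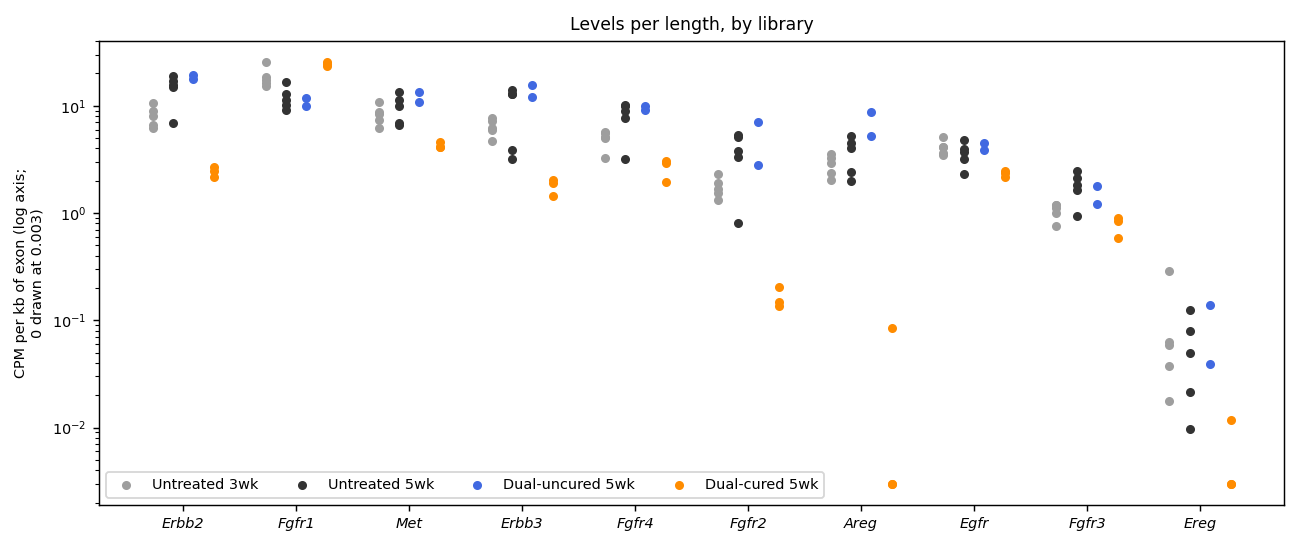
Level of each gene per length (CPM per kilobase of exon, log axis, 0 drawn at 0.003) in untreated mice at 3wk and 5wk and in dual-uncured and dual-cured mice at 5wk, 1 point per library. Fgfr1 is the one gene whose 3 cured libraries lie above the untreated libraries of 5wk, and Areg and Ereg reach 0 in cured mice.

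What the cured tissue expressed was examined against untreated mice at 5wk. Of the 9 members that passed the filter on low counts, 8 were lower and 1, Fgfr1, was higher in cured mice (edgeR adjusted p under 0.05, here called). The background was large: 44.7% of the 15816 genes tested were called, 26.7% lower and 18.0% higher. That share was 27.9% without cured replicate 3 and 59.5% without untreated replicate 2, where 7 and 9 members were called. The median log2 fold change of the 9 was -1.55 beside -0.05 over all genes tested. Erbb2, Met, Fgfr2 and Fgfr4 also stand in a target network that the study drew from these libraries with the cured mice as the comparison, so their direction here is not independent evidence. Ereg did not pass the filter.

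Among the ERBB receptors, Erbb2 and Erbb3 fell and Egfr fell least. Erbb2, the shared partner of the family, had 89.4, 35.7, 81.8, 77.0 and 99.1 CPM in untreated replicates 1 to 5 and 14.1, 12.9 and 11.3 in cured replicates 2 to 4. The groups did not overlap, and Erbb2 fell by 2.56 on the log2 scale (SE 0.31, edgeR adjusted p = 0.000286). Erbb3, the neuregulin receptor, had 84.1, 19.1, 77.9, 23.5 and 77.5 CPM in the untreated and 8.70, 12.3 and 11.5 in the cured mice. Untreated replicates 2 and 4 were low for Erbb3, which still did not overlap and fell by 2.35 (SE 0.53, edgeR adjusted p = 0.00676).

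Egfr, the receptor of amphiregulin, had 42.2, 26.2, 54.0, 35.8 and 44.7 CPM in untreated and 24.7, 26.8 and 27.8 CPM in cured mice. Here untreated replicate 2 lay inside the cured range. The size of the difference depended on the scaling. On unscaled library sizes the mean was 19.0 CPM in cured and 44.3 CPM in untreated mice, beside 26.4 and 40.6 with TMM factors. Egfr fell by 0.59 (SE 0.21, edgeR adjusted p = 0.0432), a call that was lost when any library other than untreated replicate 2 was left out (edgeR adjusted p up to 0.138) and with RLE size factors (0.0545).

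Met, the HGF receptor, had 85.9, 50.9, 102, 53.3 and 75.8 CPM in untreated mice and 31.4, 35.6 and 31.6 CPM in cured mice. The groups did not overlap, and Met fell by 1.14 (SE 0.24, edgeR adjusted p = 0.00485).

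The FGF receptors went in both directions. Fgfr2, an epithelial FGF receptor, had 39.1, 8.29, 54.8, 34.5 and 53.3 CPM in untreated mice and 1.54, 2.09 and 1.40 CPM in cured mice. It fell most among the receptors, by 4.47 (SE 0.60, edgeR adjusted p = 0.000507), with the lowest untreated value again in replicate 2. Fgfr4, an FGF receptor known for bile acid control through FGF15 in liver, had 35.6, 11.4, 34.8, 27.3 and 31.4 CPM in untreated and 6.91, 10.9 and 10.4 CPM in cured mice, a decrease of 1.55 on the log2 scale (log2 fold change -1.55, SE 0.35, edgeR adjusted p = 0.00672).

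Fgfr3, known as a brake on bone growth and for mutations in bladder cancer, had 11.8, 6.67, 17.4, 15.2 and 13.2 CPM in untreated and 6.45, 4.19 and 6.01 CPM in cured mice. The gap was narrow, and Fgfr3 fell by 1.19 (SE 0.30, edgeR adjusted p = 0.0112). Without cured replicate 3 the call was lost (edgeR adjusted p = 0.0551).

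Fgfr1, the FGF receptor of mesenchymal cells, was the member that rose. It had 111, 165, 101, 128 and 89.2 CPM in untreated mice and 230, 242 and 250 CPM in cured mice, without overlap. The increase was 1.04 on the log2 scale (SE 0.22, edgeR adjusted p = 0.00482). It depended in size on the scaling: on unscaled library sizes the mean was 173 CPM in cured and 122 CPM in untreated mice, beside 241 and 119 with TMM factors. Skeletal muscle markers, 15 of 15 above 0 and 4 of them called higher, moved with it, with a median log2 fold change of 1.36. Of 6 endothelium markers 2 were called higher and none lower (median 0.32). Of 7 adipocyte markers 1 was called higher and 1 lower (median 0.50). Of 11 fibroblast markers 2 were called higher and 1 lower, with a median of -0.21. Their part in the result was not tested.

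The ligands were near 0 in cured mice. Areg, a ligand of EGFR that is shed from the cell surface, had 191, 59, 215, 123 and 100 counts (5.47, 2.40, 6.30, 4.89 and 2.94 CPM) in untreated mice and 2, 0 and 0 counts in cured mice. From the summed counts the level was 137-fold higher in untreated mice, with a counting interval (95%, exact) of 37.7 to 1131 that covers counting error only. The fitted log2 fold change was -6.85 (SE 0.76, edgeR adjusted p = 0.000209), a value that depends on the prior count. Ereg, a related EGFR ligand, had 18, 8, 3, 1 and 7 counts in untreated and 0, 0 and 1 count in cured mice, a ratio of 14.7 with an interval of 2.48 to 596.

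**Figure D2:**
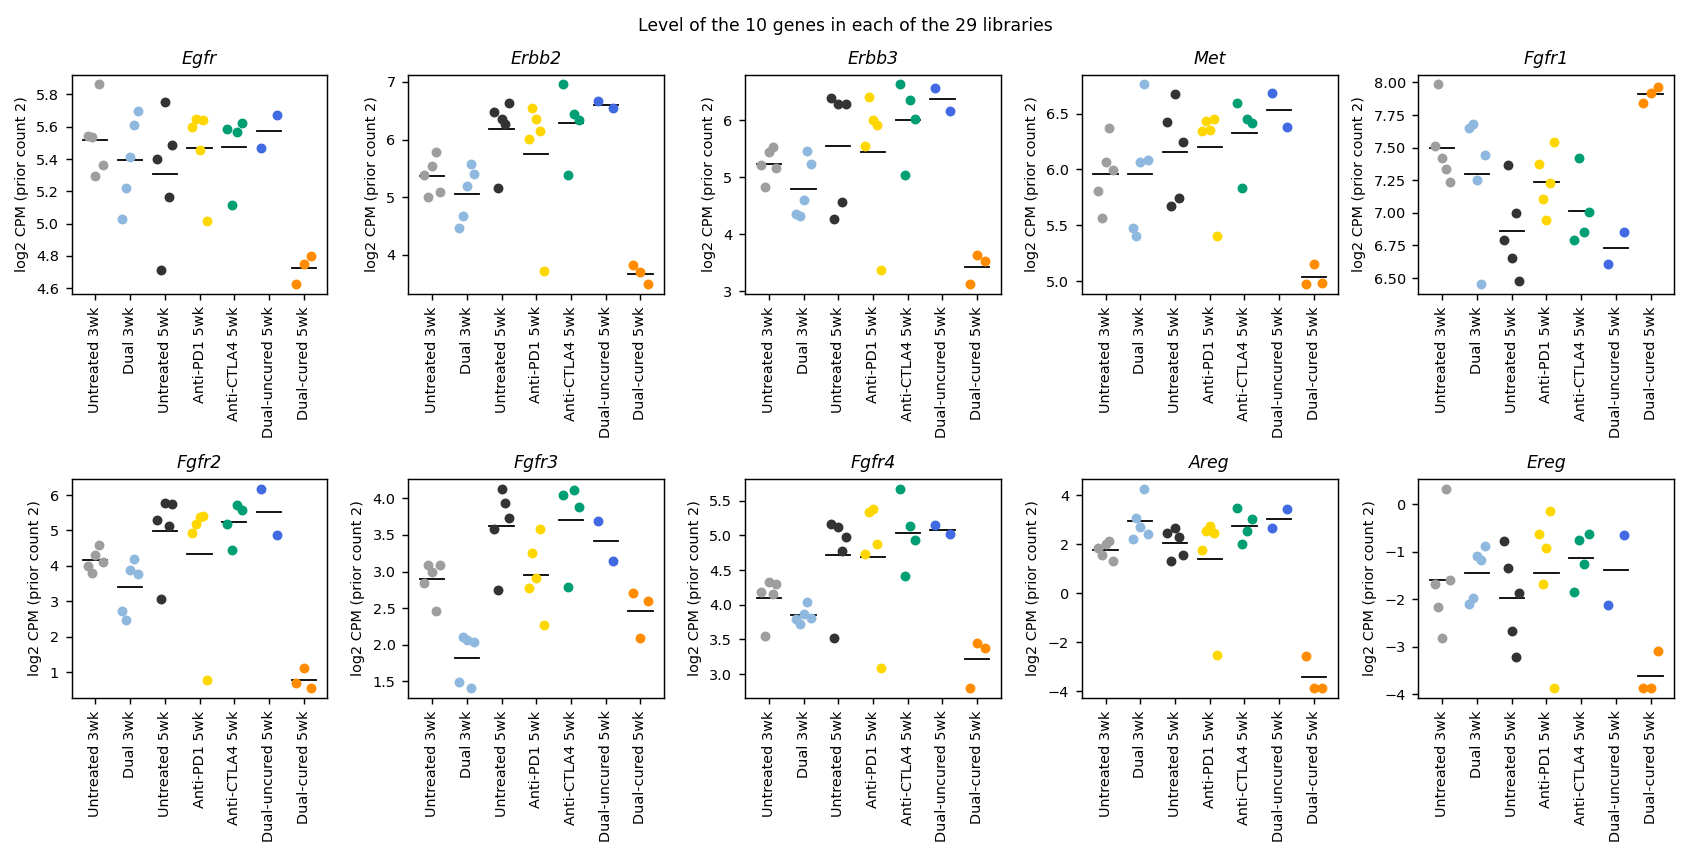
Level of each of the 10 genes (log2 CPM with a prior count of 2) in the 29 libraries by group, with 1 point per library and a line at the group mean. The cured mice have the lowest group mean for Erbb2, Erbb3, Met, Fgfr2 and Areg and the highest for Fgfr1, and 1 anti-PD1 library, replicate 5, lies beside them for Erbb2, Erbb3, Fgfr2 and Areg.

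The gastric epithelium list moved with the members: 19 of its 19 tested genes were called lower in cured mice, with a median log2 fold change of -6.56. Keratinocyte markers (3 of 5 tested called lower, median -4.13; Krt1 and Dsg3 at 0 in the cured mice) and liver markers (3 of 3 tested, median -7.32, 0.533 to 1.13 summed CPM in cured and 5.16 to 34.5 in untreated mice) were lower too. Their part in the fall of the receptors was not tested. In the cured libraries the 22 epithelial markers still summed to between 26.1 and 121 CPM. Met stayed at 31.4 CPM or more there and Egfr at 24.7 or more. Fgfr2 stayed at 2.09 or less and Areg at 0.102 or less. On unscaled library sizes the cured means were 23.6 CPM for Met and 19.0 CPM for Egfr. Which cells held this RNA was not tested.

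**Figure D3:**
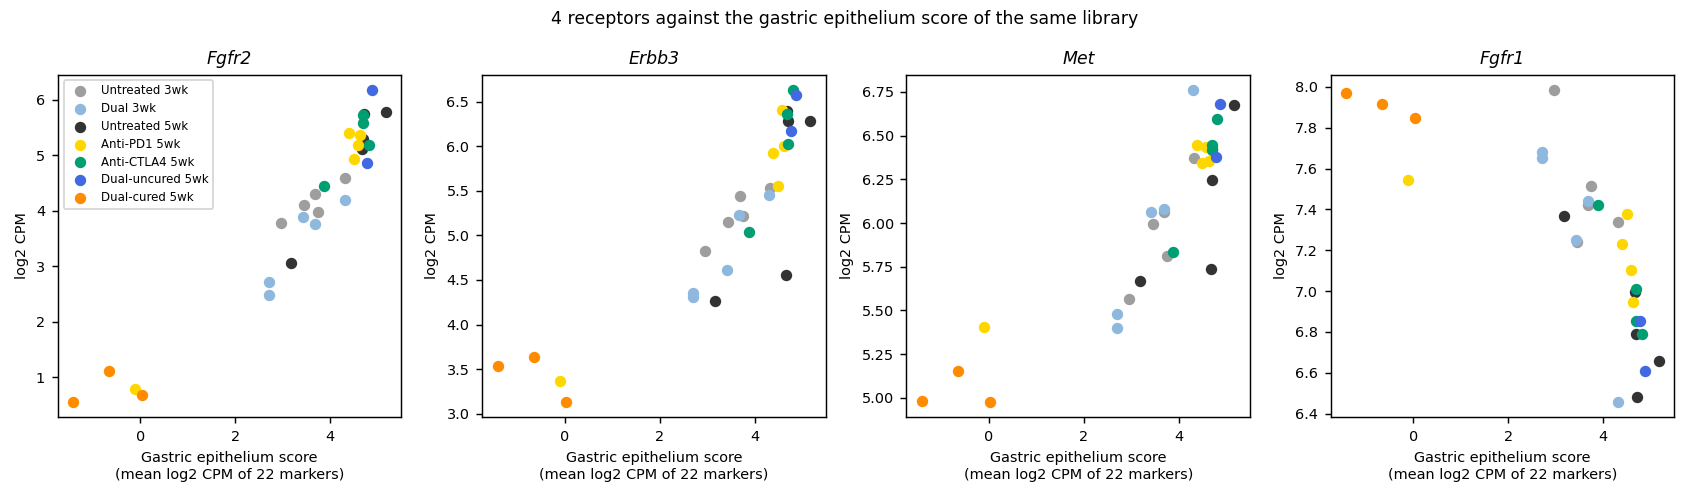
log2 CPM of Fgfr2, Erbb3, Met and Fgfr1 (vertical) against the gastric epithelium score of the same library (horizontal, mean log2 CPM of 22 markers), 1 point per library, coloured by group. The 3 cured libraries and anti-PD1 replicate 5 lie at scores from -1.41 to 0.03, apart from the other 25 libraries. Fgfr2 is lowest and Fgfr1 among the highest there, and Erbb3 of untreated replicate 4 at 5wk lies below the libraries of like score.

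Other genes of the pathways were taken from 6 fixed lists with 62 genes, all in the table. Their counts in cured against untreated mice are to be read against the 44.7% of all genes called there (26.7% lower and 18.0% higher). Of the other ERBB ligands, 7 of 9 were tested in cured against untreated mice, 4 were called lower and 1 higher, with a median log2 fold change of -1.34. Tgfa (transforming growth factor alpha), at 18.4 CPM in untreated and 1.64 CPM in cured mice, fell by 3.47 (SE 0.41, edgeR adjusted p = 0.000266), and Btc (betacellulin) fell by 2.60 (SE 0.50, edgeR adjusted p = 0.00326). Nrg1 (neuregulin, a ligand of ERBB3) was at 0.952 CPM in untreated mice and at 1 count in all cured mice together, a ratio of 60.0 with a counting interval of 10.6 to 2384 (fitted log2 fold change -5.49, SE 0.84, edgeR adjusted p = 0.000985). Egf itself was the ligand called higher.

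HGF and its activation was the list with the largest median, -5.19, where 5 of 6 genes were called lower and 1, Hpn (hepsin), higher. St14 (matriptase, which activates HGF) fell from 105 to 1.33 CPM, a log2 fold change of -6.27 (SE 0.55, edgeR adjusted p = 0.000129). Its inhibitor Spint1 fell by 6.12 (SE 0.59, edgeR adjusted p = 0.000147) and Hgfac, the HGF activator, by 5.92 (SE 0.58, edgeR adjusted p = 0.000147). Hgf itself, the ligand of MET, was low, at 2.55 CPM in untreated and 0.770 CPM in cured mice (log2 fold change -1.70, SE 0.52, edgeR adjusted p = 0.0244).

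Of 20 FGF ligands and co-receptors, 11 were tested, 1 was called lower and 1 higher, with a median of 0.50. Fgf23, a hormone that controls phosphate, was at 3.49 CPM in untreated and at 2 counts in all cured mice together, a ratio of 108 with a counting interval of 29.7 to 893 (fitted log2 fold change -6.52, SE 0.81, edgeR adjusted p = 0.000329), and Fgf18 rose by 0.78 (SE 0.27, edgeR adjusted p = 0.0392). Of the other receptors, Mst1r (the MET relative RON) fell by 1.56 (SE 0.31, edgeR adjusted p = 0.00363), Fgfrl1 (an FGF receptor without a kinase) rose by 0.76 (SE 0.17, edgeR adjusted p = 0.00592) and Erbb4 did not pass the filter.

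Few downstream genes were called beside the 44.7% of all genes, and they went in both directions. Of 9 adaptors and sheddases, 2 were called lower, Adam10 (a protease that sheds ligands, log2 fold change -1.14, SE 0.28, edgeR adjusted p = 0.0095) and Shc1 (an adaptor, -0.66, SE 0.17, edgeR adjusted p = 0.0112), and the list median was -0.01. Of 15 feedback inhibitors and ERK output genes, 2 were called lower and 1 higher, with a median of -0.45. Phlda1 fell by 1.66 (SE 0.22, edgeR adjusted p = 0.000492), Etv4, a transcription factor that follows ERK signalling, fell by 1.61 (SE 0.29, edgeR adjusted p = 0.00233), and Lrig1, an inhibitor of ERBB receptors, rose by 0.61 (SE 0.16, edgeR adjusted p = 0.0134).

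**Figure D4:**
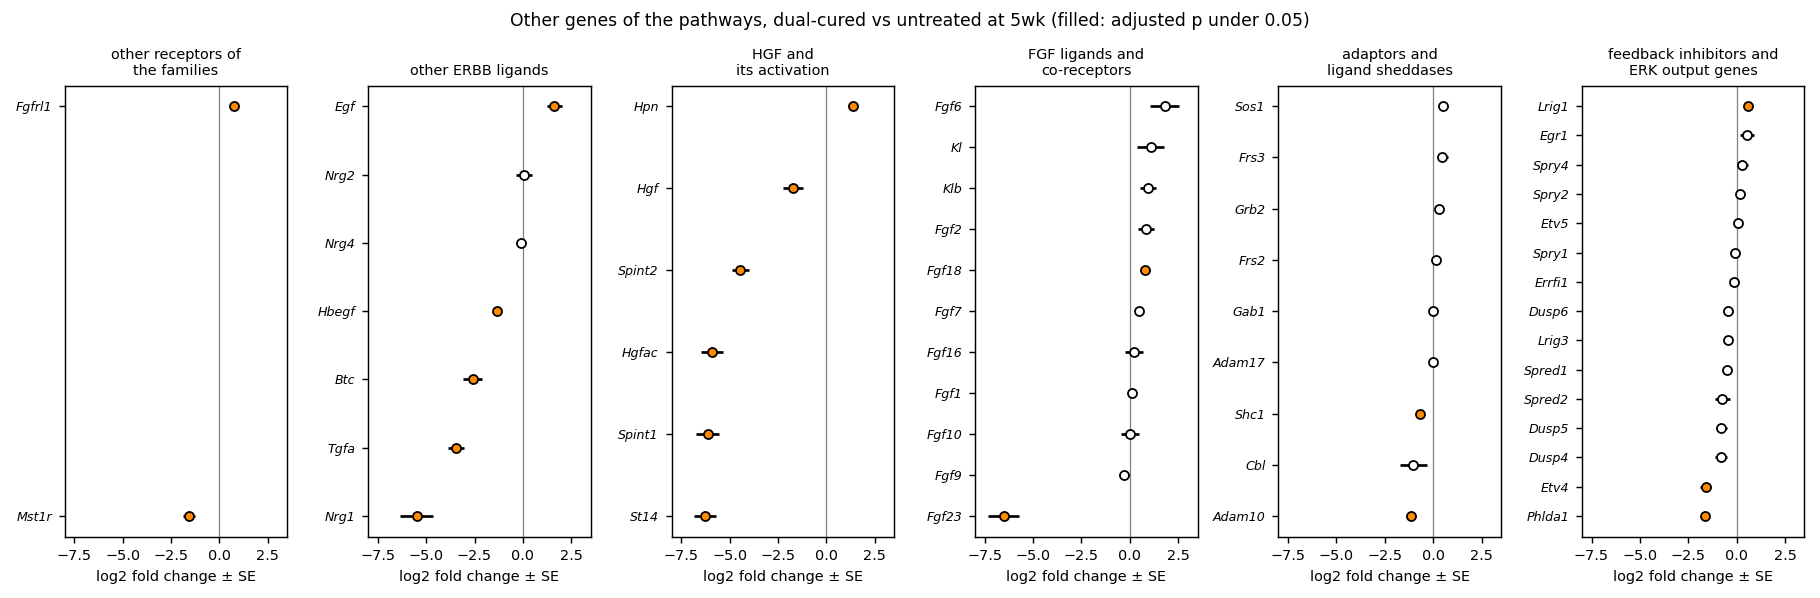
log2 fold change with its SE for the tested genes of 6 pathway lists, dual-cured against untreated mice at 5wk, with filled points for an edgeR adjusted p under 0.05. The lowest values are in HGF and its activation, where 5 of 6 genes lie between -1.70 and -6.27, and in Fgf23 and Nrg1, whereas the adaptors have a median of -0.01.

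The comparison with all 5 dual mice at 5wk, which uses the labels alone, called 0 of the 9 tested members and 0% of the 15588 genes tested with edgeR. At an unadjusted p under 0.05 it held 1 member, Fgfr3 (log2 fold change -0.75, SE 0.32, unadjusted p = 0.0425, edgeR adjusted p = 0.634), followed by Fgfr1 (0.67, SE 0.32, unadjusted p = 0.0608, edgeR adjusted p = 0.634). DESeq2 called 0 members and 46 genes, and 1071 genes had an unadjusted p under 0.05 with edgeR. The 5 dual mice held both ends of the range for several genes, with Erbb2 at 93.0 and 102 CPM in the uncured and at 11.3 to 14.1 in the cured mice.

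Whether the receptors of uncured tumors differed from untreated ones was asked next. In the uncured mice Erbb2 had 102 and 93.0 CPM, Erbb3 94.8 and 72.0, Met 103 and 83.0, and Fgfr2 72.2 and 29.2 in replicates 1 and 5. The values overlapped those of untreated mice for each member, apart from single libraries above them. The share of all genes that overlap was not counted, and with so few uncured mice no likeness is read from this overlap. edgeR called 0 of the 10 tested members and 0% of 16156 genes, and DESeq2 called 0 members. Areg, with 6.29 and 10.7 CPM against 2.40 to 6.30 in untreated mice, had the smallest unadjusted p (log2 fold change 0.95, SE 0.39, unadjusted p = 0.0399, edgeR adjusted p = 0.734), and Met came next (0.33, SE 0.28, unadjusted p = 0.283, edgeR adjusted p = 0.749). Over all genes, 787 had an unadjusted p under 0.05 with edgeR and DESeq2 called 17. No gene of the pathway lists was called, and the one with the smallest unadjusted p was Phlda1, a gene that ERK signalling induces (log2 fold change 0.70, SE 0.28, unadjusted p = 0.0339, edgeR adjusted p = 0.734).

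Uncured and cured mice, which had the same antibodies on the same days, were also compared directly. The study split them by whether peritoneal tumor was gone, so tumor content differs between the groups by definition. All 9 tested members were called, 8 higher and Fgfr1 lower in the uncured mice, on a background of 70.0% of 15796 genes called and 36.9% called higher. Fgfr2 was 4.88 higher on the log2 scale (SE 0.39, edgeR adjusted p = 8.29e-06), Erbb3 2.91 (SE 0.17, edgeR adjusted p = 1.67e-06), Erbb2 2.90 (SE 0.11, edgeR adjusted p = 4.94e-07), Fgfr4 1.82 (SE 0.19, edgeR adjusted p = 3.86e-05) and Met 1.47 (SE 0.12, edgeR adjusted p = 8.09e-06). Egfr was 0.82 higher (SE 0.11, edgeR adjusted p = 0.000225). Fgfr3 was 0.93 higher (SE 0.24, edgeR adjusted p = 0.00787), a call that was lost without uncured replicate 1 (log2 fold change 0.64, edgeR adjusted p = 0.0816).

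Fgfr1 had 97.6 and 116 CPM in the uncured mice, below each of the cured ones, with a log2 fold change of -1.20 (SE 0.12, edgeR adjusted p = 2.47e-05). Areg had 196 and 392 counts in the uncured mice, a ratio to cured of 263 with a counting interval of 72.5 to 2178 (fitted log2 fold change 7.79, SE 0.62, edgeR adjusted p = 7.91e-06). Ereg had 5 and 21 counts and was not tested. These comparisons share the 3 cured libraries with those above. Gastric epithelium markers summed to 4307 and 5163 CPM in the uncured mice and skeletal muscle markers to 43420 and 63100. Leukocyte markers were called higher in the uncured mice for 8 of 8 genes (median log2 fold change 0.92, summed CPM 1116 to 1293 against 688 to 786), and adipocyte markers lower for 6 of 7 (median -1.48, 405 to 523 against 930 to 1566). The part of these lists in the differences was not tested.

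Counts in the pathway lists between uncured and cured mice are to be read against the 70.0% of all genes called there. Of 6 genes of HGF and its activation, 5 were called higher in the uncured mice and 1 lower, led by St14 (log2 fold change 7.07, SE 0.29, edgeR adjusted p = 5.26e-07), and of 7 other ERBB ligands 4 were higher and 1 lower, with Tgfa 3.98 higher (SE 0.21, edgeR adjusted p = 1.13e-06). FGF ligands and co-receptors were mostly lower among those called, 4 of 11 lower and 1 higher, where Fgf6, a ligand of skeletal muscle, fell by 3.34 (SE 0.56, edgeR adjusted p = 0.000695) and Kl (the co-receptor Klotho) by 2.77 (SE 0.43, edgeR adjusted p = 0.000437). Of 15 feedback and ERK output genes 8 were higher and 1 lower, with Phlda1 2.37 higher (SE 0.20, edgeR adjusted p = 9.92e-06) and Etv4 2.14 higher (SE 0.25, edgeR adjusted p = 7.7e-05). Of 9 adaptors and sheddases 4 were higher and 3 lower, with Cbl, a ubiquitin ligase that removes active receptors, 1.93 higher (SE 0.42, edgeR adjusted p = 0.00321). Mst1r was 1.90 higher (SE 0.11, edgeR adjusted p = 1.3e-06) and Fgfrl1 fell by 1.01 (SE 0.10, edgeR adjusted p = 3.68e-05).

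Treatment with 1 antibody was compared with untreated mice at 5wk. For anti-PD1, edgeR called 0 of 9 tested members and 0% of 15640 genes. Fgfr3, with 6.75, 9.50, 7.46, 12.0 and 4.75 CPM, had the smallest unadjusted p (log2 fold change -0.67, SE 0.29, unadjusted p = 0.0446, edgeR adjusted p = 1.00), followed by Fgfr1 (0.36, SE 0.20, unadjusted p = 0.0957, edgeR adjusted p = 1.00). For anti-CTLA4, edgeR called 0 of 10 members and 0% of 15781 genes, and no member had an unadjusted p under 0.05. Areg, with 11.1, 3.93, 5.81 and 8.14 CPM, came closest (log2 fold change 0.71, SE 0.35, unadjusted p = 0.0709, edgeR adjusted p = 1.00), then Ereg (0.77, SE 0.60, unadjusted p = 0.227, edgeR adjusted p = 1.00). Unadjusted p was under 0.05 for 205 genes with anti-PD1 and 128 genes with anti-CTLA4, and DESeq2 called 0 members and 0 genes in either comparison. In the pathway lists no gene was called, and the smallest unadjusted p values were those of Klb for anti-PD1 (log2 fold change 0.95, SE 0.42, unadjusted p = 0.0472, edgeR adjusted p = 1.00) and Phlda1 for anti-CTLA4 (0.41, SE 0.19, unadjusted p = 0.0516, edgeR adjusted p = 1.00).

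For Erbb2, Fgfr2 and Met the spread within the anti-PD1 group came largely from replicate 5. For Fgfr1 the SD was 24.6 CPM with that library and 18.3 without it, and for Fgfr3 2.75 and 2.34. Replicate 5 had 13.1 CPM of Erbb2, 10.2 of Erbb3, 1.65 of Fgfr2, 42.3 of Met and 186 of Fgfr1, and 2 counts of Areg and 0 of Ereg. The other 4 anti-PD1 mice had means of 77.5 ± 12.8 CPM for Erbb2, 64.1 ± 15.6 for Erbb3, 37.7 ± 5.36 for Fgfr2, 84.2 ± 3.21 for Met and 144 ± 18.3 for Fgfr1 (SD, n = 4). Without replicate 5 no member was called against untreated mice either, and the log2 fold change of Fgfr2 went from -0.31 to -0.02 and that of Erbb2 from -0.24 to 0.01.

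Against cured mice, anti-PD1 mice had 8 of 10 members called, 7 higher and Fgfr1 lower, on a background of 18.8% of 15749 genes called and 16.3% called higher. Without replicate 5 all 10 were called, on a background of 68.4%, and when any 1 of the other 7 libraries of the comparison was left out, 0 members and 0 genes were called. Fgfr2 was 4.18 higher with replicate 5 (SE 0.94, edgeR adjusted p = 0.0403) and 4.48 without it (SE 0.19, edgeR adjusted p = 6.58e-07). Erbb2 was 2.34 higher with it (SE 0.56, edgeR adjusted p = 0.0403) and 2.60 without it (SE 0.15, edgeR adjusted p = 1.84e-06), and Met 1.20 (SE 0.24, edgeR adjusted p = 0.0403) and 1.35 (SE 0.08, edgeR adjusted p = 2.48e-06). The log2 fold change of Erbb3 with replicate 5 was 2.30 (SE 0.59, edgeR adjusted p = 0.0409), of Fgfr4 1.64 (SE 0.48, edgeR adjusted p = 0.0492), of Egfr 0.76 (SE 0.16, edgeR adjusted p = 0.0403), of Areg 6.83 (SE 1.52, edgeR adjusted p = 0.0403) and of Fgfr1 -0.66 (SE 0.16, edgeR adjusted p = 0.0403).

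Anti-CTLA4 mice had all 10 members called against cured mice, 9 higher and Fgfr1 lower, where 62.5% of 15668 genes were called and 33.6% were called higher. Erbb2 had 124, 41.6, 87.4 and 81.0 CPM and Fgfr2 36.3, 21.7, 52.9 and 47.7 in anti-CTLA4 replicates 1 to 4, with replicate 2 the lowest for both and still above the cured mice. The log2 fold change was 4.55 for Fgfr2 (SE 0.37, edgeR adjusted p = 7.22e-05), 2.7 for Erbb2 (SE 0.34, edgeR adjusted p = 0.000378), 2.67 for Erbb3 (SE 0.36, edgeR adjusted p = 0.000534) and 1.86 for Fgfr4 (SE 0.30, edgeR adjusted p = 0.00115). It was 1.30 for Fgfr3 (SE 0.33, edgeR adjusted p = 0.0086), 1.30 for Met (SE 0.18, edgeR adjusted p = 0.000558), 0.75 for Egfr (SE 0.14, edgeR adjusted p = 0.00213) and -0.88 for Fgfr1 (SE 0.16, edgeR adjusted p = 0.00207). For the ligands the ratio from counts was 226 for Areg (counting interval 62.5 to 1871) and 24.8 for Ereg (4.25 to 997), with fitted log2 fold changes of 7.58 (SE 0.76, edgeR adjusted p = 0.000142) and 4.29 (SE 0.90, edgeR adjusted p = 0.00385).

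The same holds for the pathway lists here, with 62.5% of all genes called for anti-CTLA4 and 18.8% for anti-PD1. Anti-CTLA4 mice had 5 of 6 genes of HGF and its activation called higher than cured mice and 1 lower, led by St14 (log2 fold change 6.46, SE 0.42, edgeR adjusted p = 4.67e-05), and 8 of 15 feedback and ERK output genes higher and 1 lower, led by Phlda1 (2.09, SE 0.13, edgeR adjusted p = 4.00e-05). Of 7 other ERBB ligands 4 were higher and 1 lower, with Tgfa 3.62 higher (SE 0.35, edgeR adjusted p = 0.000127). In anti-PD1 mice 5 of 6 genes of HGF and its activation, 4 of 7 other ERBB ligands and 5 of 15 feedback and ERK output genes were called higher and none lower, led by Hgfac (6.10, SE 1.25), Nrg1 (4.93, SE 1.42) and Phlda1 (1.81, SE 0.41), with edgeR adjusted p of 0.0403, 0.0476 and 0.0403.

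**Figure D5:**
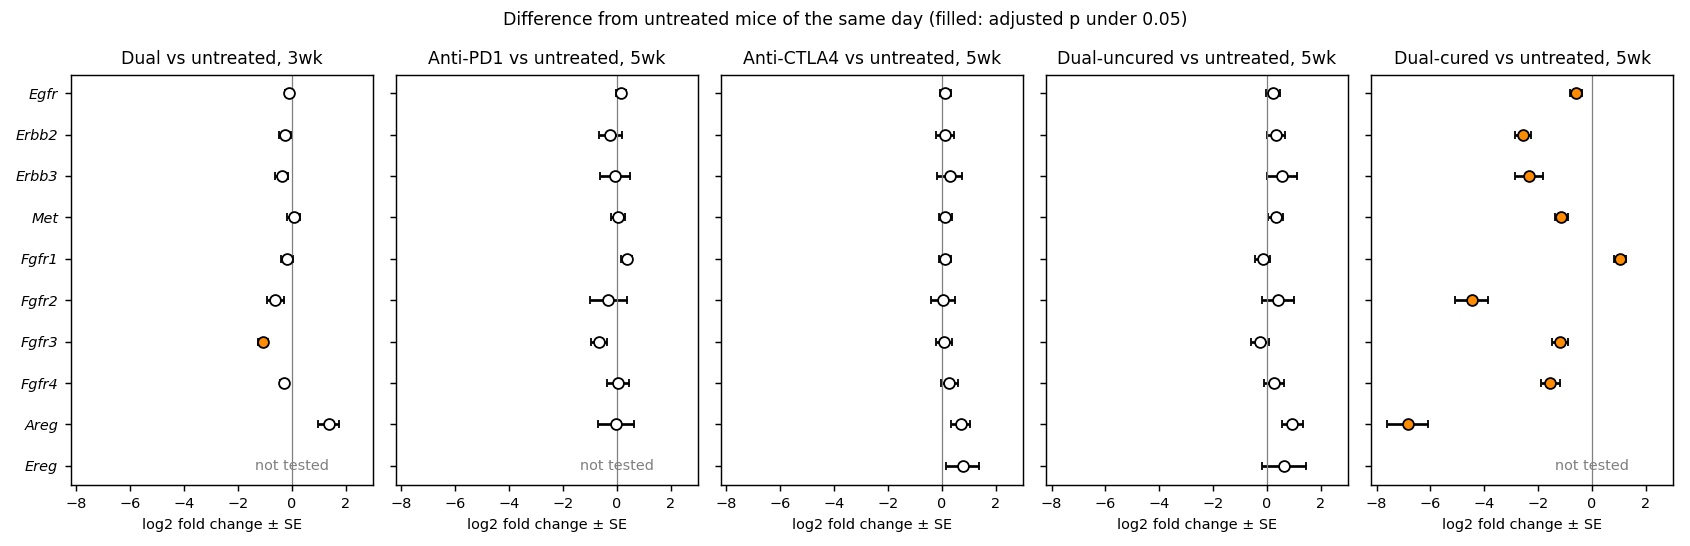
log2 fold change with its SE for each gene against untreated mice of the same day, in 5 comparisons, with filled points for an edgeR adjusted p under 0.05 and "not tested" where a gene did not pass the filter. In cured mice 8 genes lie below 0 and Fgfr1 above it, and elsewhere Fgfr3 at 3wk is the one filled point.

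Early in treatment, at 3wk, dual mice were compared with untreated mice. Of 9 tested members 1 was called, Fgfr3, and it was lower, where 0.574% of 15503 genes were called and 0.103% were called lower. Fgfr3 had 7.11, 8.44, 7.93, 5.44 and 8.42 CPM in untreated and 2.76, 4.25, 4.14, 2.59 and 4.04 CPM in dual mice. The groups did not overlap, and Fgfr3 fell by 1.07 (SE 0.20, edgeR adjusted p = 0.0444). The call was lost when any 1 of the 10 libraries was left out (edgeR adjusted p from 0.0514 to 0.133), while the log2 fold change stayed between -1.17 and -0.98. Keratinocyte markers summed to 45.9 to 84.7 CPM in untreated and 30.0 to 58.7 CPM in dual mice (5 of 5 tested below 0, none called). Adipocyte markers were below 0 for 6 of 7 genes, none called, with a median of -0.79 and sums of 667 to 1330 in untreated and 259 to 907 in dual mice. Leukocyte markers were above 0 for 8 of 8, with 1 called, a median of 0.67 and sums of 1005 to 1428 in untreated and 1278 to 2244 in dual mice. The part of these lists in the results for Fgfr3 and Areg at 3wk was not tested.

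Areg at 3wk had 3.57, 2.86, 3.96, 4.35 and 2.45 CPM in untreated mice and 4.57, 8.46, 6.52, 19.3 and 5.29 CPM in dual mice. Every dual mouse was above every untreated one, replicate 4 by the most, and the difference did not pass the threshold (log2 fold change 1.37, SE 0.38, edgeR adjusted p = 0.162; 0.84 without replicate 4, SE 0.23, edgeR adjusted p = 0.175). DESeq2 called it (adjusted p = 0.0166), as did edgeR with the gastric epithelium score as a covariate (edgeR adjusted p = 0.0038). Those settings called 501 and 1670 genes where the main fit called 89. The fit of all 29 libraries called no member at 3wk. Of the receptors, Met had 44.5, 42.2, 66.8, 108 and 67.6 CPM in dual mice against 47.3 to 82.6 in untreated ones, and its groups overlapped, as did those of Egfr, Erbb2, Erbb3, Fgfr1, Fgfr2 and Fgfr4. Ereg, with 4 to 15 counts in dual and 2 to 38 in untreated mice, did not pass the filter. None of the pathway genes was called, and the smallest unadjusted p was that of Klb, the co-receptor through which FGF15 and FGF21 signal (log2 fold change -1.28, SE 0.26, unadjusted p = 0.000411, edgeR adjusted p = 0.0574).

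Untreated tumors were then compared between days, with day and library series not told apart. At 5wk 1 of 9 tested members was called, Erbb2, and it was higher than at 3wk, where 10.8% of 15604 genes were called and 6.24% were called higher. Erbb2 had 41.6, 32.0, 46.8, 55.0 and 34.1 CPM at 3wk, against the values given above at 5wk, which overlapped only through replicate 2 of 5wk. The log2 fold change was 0.87 (SE 0.24, edgeR adjusted p = 0.0422). Leaving out 8 of the 10 libraries, each in turn, lost the call, and with the gastric epithelium score as a covariate the value was 0.27 (SE 0.15, edgeR adjusted p = 0.274). The score lay between 2.96 and 4.32 at 3wk and between 3.17 and 5.17 at 5wk.

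Without untreated replicate 2 of 5wk, 31.2% of 15746 genes were called, and 5 members were among them: Fgfr2 higher by 1.32 (SE 0.18, edgeR adjusted p = 0.00135), Erbb2 by 1.05 (SE 0.16, edgeR adjusted p = 0.00167), Fgfr3 by 0.94 (SE 0.18, edgeR adjusted p = 0.00391) and Fgfr4 by 0.88 (SE 0.16, edgeR adjusted p = 0.00304), and Fgfr1 lower (log2 fold change -0.79, SE 0.18, edgeR adjusted p = 0.0087). Over all 10 libraries, fibroblast markers were below 0 for 10 of 11 genes with 6 called lower (median -0.83, sums of 12912 to 20955 CPM at 3wk and 6318 to 11241 at 5wk), and endothelium markers for 6 of 6 with 1 called lower (median -0.26). Their part in the value of Fgfr1 was not tested. Of the pathway genes, Klb was lower at 5wk by 2.15 on the log2 scale (log2 fold change -2.15, SE 0.32, edgeR adjusted p = 0.00602), Fgf18 fell by 1.18 (SE 0.32, edgeR adjusted p = 0.0387), Adam17 (the main sheddase of EGFR ligands) fell by 0.51 (SE 0.14, edgeR adjusted p = 0.0444) and Spint1 rose by 1.12 (SE 0.29, edgeR adjusted p = 0.0322). Whether dual treatment acted differently on the 2 days was tested as an interaction over all 5 dual mice of 5wk. edgeR called 0 of 10 members and 0% of 16021 genes, no member had an unadjusted p under 0.05, and DESeq2 called 0 members. Over all genes, 1648 had an unadjusted p under 0.05 with edgeR and DESeq2 called 18. Among the members the smallest unadjusted p values were those of Fgfr1 (0.83, SE 0.40, unadjusted p = 0.0537, edgeR adjusted p = 0.497) and Areg (-1.74, SE 1.35, unadjusted p = 0.214, edgeR adjusted p = 0.609).

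Likeness in pattern was described from log2 CPM centred within each group over 29 libraries, among 14338 genes with a mean of at least 1 CPM. The libraries share tissue makeup and scaling, so the values describe these libraries only. A library far from its group weighs on r, such as anti-PD1 replicate 5 for Fgfr2 (1.65 CPM beside 30.7 to 42.4). Rank correlations (Spearman) of the genes most like a member were lower than r, for example 0.68 for Fgfr3 with Col17a1 and 0.83 for Fgfr4 with Epha1. Those of Egfr were higher, at 0.92 to 0.95. The genes most like Erbb2 were Clcn2, Dqx1 and Tbc1d2 (Pearson's r 0.98 each), those most like Erbb3 were Klf3, Fubp3 and Als2cl (0.97 each), and those most like Egfr were Ankfy1, Sptan1 and Gab2 (0.90 each). For Met they were Gfpt1, Rasa2 and Itga6 (0.97), for Fgfr2 Ces2g, Muc1 and Car2 (0.97), for Fgfr4 Ces2c, Slc2a9 and Epha1 (0.93 to 0.95) and for Areg Eva1c, 4930461G14Rik and Mybl2 (0.94 to 0.96). Fgfr1 and Fgfr3 had other partners: Htra3, Fzd8 and Rasip1 for Fgfr1 (0.88 to 0.89) and Fat2, Col17a1 and Slc5a1 for Fgfr3 (0.80 to 0.87). Ereg was under the level limit. Among the members, r was 0.92 between Erbb2 and Fgfr2, 0.90 between Erbb2 and Erbb3 and -0.84 between Met and Fgfr1.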

How the data were processed

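Per the labels, reads were aligned to mm10 with STAR 2.7.0f and counted with featureCounts 1.6.4, while the study's methods name STAR 2.5.2b and HTSeq 0.6.1 on paired-end reads of 150 bp. The annotation and strand setting are not given in the sources used here. The authors deposited raw, unnormalized counts by gene symbol, with 0 rows lacking a name, and the authors used DESeq2 for comparisons of their own.

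From the counts, CPM on TMM-scaled library sizes, log2 fold changes, standard errors and two-sided p-values came from edgeR 4.0.16 under R 4.3.3 (filterByExpr by group, glmQLFit and glmQLFTest, Benjamini-Hochberg adjustment over all genes tested, threshold 0.05). Only the groups compared entered a fit. Groups came from the labels, and the outcome from the mouse numbers of the study. Alternatives were DESeq2 1.42.0, RLE and upper-quartile scaling, no filter, a mean of at least 1 CPM, all 29 libraries in 1 fit, a block on the replicate number, the gastric epithelium score as a covariate, unscaled CPM and each library left out in turn. Lengths and positions came from GENCODE vM21, whose symbols matched 23376 of the 24421, and promoters from RefSeq. Scripts were tested on simulated data.

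The members, gene lists and tests were chosen with earlier results of these data known. Named were all 10 members, with test values where called, for every tested member in cured against untreated mice, and for the 2 smallest unadjusted p where none was called. From each pathway list up to 3 called genes with the largest change qualified, or the gene with the smallest unadjusted p, and outside the cured against untreated comparison only some of these are given. Genes beside that rule (Egf, Hpn, Hgf and Erbb4 in cured mice) were named after their values were seen. Each library came from a separate mouse, and intervals from counts cover counting error only. The lists of adipocyte, mesothelium, endothelium and leukocyte markers gave medians in cured against untreated mice of 0.50, -0.75, 0.32 and -0.31 on the log2 scale. Of 6 exocrine pancreas markers only 1 was tested there, with a log2 fold change of -5.86.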

Additional observations from a re-analysis of the deposited data

Results flagged for a closer look

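Single libraries lay far from the rest of their group by Dixon's criterion in 6 of 50 groups of values tested, and chance flags about 1 in 20. Replicate 5 of the anti-PD1 mice was low for Met, at 42.3 CPM where the other 4 lay between 81.0 and 87.2, and for Fgfr2, at 1.65 CPM where the others lay between 30.7 and 42.4. Replicate 2 of the anti-CTLA4 mice was low for Egfr, at 34.5 CPM beside 47.3 to 49.2. At 3wk, untreated replicate 2 was low for Fgfr4, at 11.7 CPM beside 17.8 to 19.9, dual replicate 4 was high for Areg, at 19.3 CPM beside 4.57 to 8.46, and untreated replicate 4 was high for Ereg, at 1.18 CPM beside 0.0727 to 0.260.

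Under the same antibodies, uncured and cured mice at 5wk differed in 9 members by edgeR's direct test, where 70.0% of all 15796 genes tested were called. The log2 differences, uncured minus cured, were 0.82 for Egfr, 2.90 for Erbb2, 2.91 for Erbb3, 1.47 for Met, -1.20 for Fgfr1, 4.88 for Fgfr2, 0.93 for Fgfr3, 1.82 for Fgfr4 and 7.79 for Areg. The groups were split by whether tumor was gone, so tumor content differs between them by definition. They hold 2 and 3 mice, and the gastric epithelium sum was 4307 or more in the uncured and 121 or less in the cured mice.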

How the results depend on the processing

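The number of members called moved by more than 1.5 times or to 0 in 3 comparisons. In dual against untreated mice at 3wk it was 1, with 2 under DESeq2 (Areg and Fgfr3), 2 with the gastric epithelium score as a covariate, 0 in the fit of all 29 libraries and 0 when any library was left out. In anti-PD1 against cured mice it was 8 and ran from 0 to 10 when 1 library was left out, with 10 only without anti-PD1 replicate 5. In untreated mice of 5wk against 3wk it was 1, with 4 under DESeq2, 2 in the fit of all 29 libraries, 0 with the epithelium score as a covariate and 0 to 5 when 1 library was left out. With the replicate number as a block (replicate block) that count was 3. Same-numbered libraries shared only a number (correlations of their deviations from -0.733 to 0.778 over the comparisons), and no block could be fitted for uncured against cured mice. Smaller changes were seen in 3 others. In cured against untreated mice 9 members were called, 7 to 9 with 1 library left out, 8 with RLE size factors and 10 under DESeq2. With the block it was 6, without Egfr, Fgfr1 (edgeR adjusted p = 0.0524) and Fgfr3. In uncured against cured mice it went from 9 to 10 and in anti-CTLA4 against cured mice from 10 to 9 under some settings. Of the log2 fold changes of members that were called or had the smallest unadjusted p, none turned its sign under the alternatives run, where 620 values kept their side of the threshold and 92 lost it. Ereg in cured against untreated mice was called by DESeq2 (adjusted p = 0.0350) and in the fit of all 29 libraries (edgeR adjusted p = 0.0414), and not without the filter (edgeR adjusted p = 0.0511).

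Counts over all genes moved by more than 1.5 times in places. DESeq2 called 501 genes where edgeR called 89 at 3wk, 46 and 17 where edgeR called 0 in all dual and in uncured against untreated mice, 5976 where it called 2968 in anti-PD1 against cured mice, 3150 where it called 1687 between days and 18 where it called 0 in the interaction. The epithelium covariate gave 1670 at 3wk and 931 between days, the fit of all libraries 7146 in anti-PD1 against cured mice, and the block 209, 4016 and 9913 at 3wk and in cured and anti-PD1 comparisons. With 1 library left out, 6 (without untreated replicate 5) to 119 genes (without dual replicate 1) were called at 3wk, 4491 (without cured replicate 3) to 9388 (without untreated replicate 2) in cured against untreated mice, and 654 (without 3wk replicate 5) to 4915 (without 5wk replicate 2) between days. The causes were not tested. Without a low-count filter the median of all genes in cured against untreated mice was -0.12, and upper-quartile scaling moved it to 0.11 in uncured against cured mice. On unscaled library sizes the cured mean of Fgfr1 was 173 CPM beside 241, and that of Met 23.6 beside 32.9. Depth limits Ereg, with at most 38 counts in a library.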

Other observations

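The ratio of Erbb2 to Erbb3 per length was 3.79 in untreated replicate 4 of 5wk, with 14.8 and 3.90 CPM per kilobase. In the other 28 libraries it lay between 1.11 and 2.15 with a median of 1.32, the cured mice and anti-PD1 replicate 5 among them. The gastric epithelium score of that library was 4.67, inside the range of its group, and its Erbb2 value lay within the range of the other untreated mice while its Erbb3 value was near that of replicate 2. No test was made of this single library, which was picked after its values were seen.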
